A study of Mus musculus with 9 samples.

Results

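Lysosomes are the compartments in which a cell digests proteins, glycans and lipids, and autophagy is the route that carries the cell's own contents to them. The genes described here encode lysosomal peptidases and other hydrolases, proteins of the lysosomal membrane, the pump that acidifies the lumen, and parts of the autophagy machinery. They are 36 genes picked by symbol from a deposited count table of 52550 genes, as lysosomal and autophagy genes that are not among the markers of myeloid cells and osteoclasts. All 36 have 1 row each in the table, and all 36 passed the filter on low counts that left 13255 genes for testing.

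The cultures were micromasses, dense drops of cells from mouse forelimbs at embryonic day 12, kept in a medium in which limb mesenchyme forms cartilage. Of the 9 cultures, 3 received Z-VAD-FMK (FMK) at 100 µM, 3 received Q-VD-OPH (OPH) at 100 µM and 3 received the vehicle DMSO, for 6 days in each case. Both compounds are peptide-based inhibitors of many caspases; FMK carries a fluoromethyl ketone and a benzyloxycarbonyl cap, and OPH a difluorophenoxymethyl ketone and a quinoline cap. The labels call the 3 cultures of a condition biological replicates and call the cells limb-derived chondroblasts; the sources used here do not give the mouse strain or the number of embryos behind a culture.

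Lysosomal peptidases comprise the cysteine cathepsins, the aspartic protease cathepsin D and a few others, most of which are made as inactive precursors and are activated in the acid lumen. The transcription factor TFEB and its relatives bind a short DNA element, the CLEAR element, before many lysosomal and autophagy genes, and they are held in the cytoplasm while the kinase complex mTORC1 is active on the lysosome. In limb cultures lysosomal genes are used by cartilage cells and fibroblasts and, at a high level, by macrophages. Fluoromethyl ketone inhibitors are known to act on cysteine cathepsins as well as on caspases; RNA counts say nothing about enzyme activity, which was not measured here.

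Library totals were 5659789 to 6867350 counts, and levels are given as CPM, edgeR's counts relative to library size, after TMM scaling. Each count stands for a read at the 3' end of a messenger RNA. Cartilage transcripts were present in every library: Col2a1, the main cartilage collagen, stood at 425 ± 38.7 CPM with FMK, 649 ± 245 CPM with OPH and 1336 ± 302 CPM with DMSO (SD, n = 3 each). The summed level of 14 cartilage markers was 1445 to 1580 CPM with FMK, 1407 to 2533 CPM with OPH and 2913 to 4381 CPM with DMSO. Of these 14, 10 fell with FMK and 5 with OPH against DMSO, and none rose, where 10.1% and 8.11% of all genes fell. Their median log2 fold changes were -1.36 and -1.13. Transcripts of other cell types were present too, so the cultures were not of chondroblasts alone. The summed level of 24 macrophage markers was 41.2 to 60.0 CPM with FMK, 282 to 320.2 CPM with OPH and 1625 to 3100.0 CPM with DMSO, and DMSO library 3 had the lowest DMSO value. Of these 24 markers, 2 were at 0 in each FMK library and none was at 0 in any OPH or DMSO library. The summed level of 13 adipocyte markers was 113 to 202 CPM with FMK, 723 to 2787 CPM with OPH and 477 to 2362 CPM with DMSO, lowest in library 3 of each treatment. Of the 11 adipocyte markers that were tested, 5 fell with FMK and 0 passed with OPH, at median log2 fold changes of -4.05 and 0.14 against DMSO. At an unadjusted p under 0.05 (edgeR), all 11 were lower with FMK and 0 differed with OPH. The share of all genes at this looser threshold was not counted. Library 3 of each treatment also had the highest summed muscle markers (562 CPM with FMK, 759 CPM with OPH and 876 CPM with DMSO). The summed level of 11 osteoclast markers was 213 to 235 CPM with FMK, 140.2 to 169 CPM with OPH and 222 to 486 CPM with DMSO, and that of 8 endothelial markers was 1.66 to 5.40 CPM over all 9 libraries. All 26 genes of an interferon-response list rose with each inhibitor against DMSO, where 10.4% of all genes rose with FMK and 8.61% with OPH. The median log2 fold changes of the 26 were 4.71 with FMK and 4.36 with OPH. In such bulk samples, fewer cells of a type and less RNA per cell cannot be told apart.

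Promoters were searched for the CLEAR element, since TFEB is one of the 36 genes and several of its known targets are among the others. RefSeq windows on GRCm38.p6, from 250 bases before to 50 bases after a gene's start, were matched to 32 of the 36 genes. The letters TCACGTGA, the core of the CLEAR element, were found on either strand in 4 of these 32 windows (12.5%), those of Ctsd, Gla, Mcoln1 and Atp6v1a, and in 1.01% of the windows of 27025 genes. The E-box CACGTG, which lies inside that core, was found in 9 of 32 windows (28.1%) and in 7.24% of all; GTCACGTG, which overlaps both, was found in 5 of 32 (15.6%) and in 2.33% of all. The core of the antioxidant response element, TGACNNNGC, which the stress factor NRF2 binds, was found in 8 of 32 windows and in 12.5% of all. Of the genes that rose with both inhibitors against DMSO, as described further on, 0 of 4 windows held TCACGTGA, and of those that fell with both, 2 of 8 held it.

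The windows of 3 genes are shown because they stand for 3 of the patterns met in the counts. Ctsd fell with both inhibitors, Gla passed the test as higher with FMK but not with OPH, and Sqstm1 rose with both. Patterns not shown are genes called lower with FMK but not OPH, or with OPH but not FMK, and genes that passed with neither. Capitals mark matches on either strand to CACGTG, TCACGTGA, GTCACGTG or TGACNNNGC, and overlapping matches run together. The windows are chr7:142387778-142388077 for Ctsd, chrX:134600956-134601255 for Gla and chr11:50210771-50211070 for Sqstm1, each on the minus strand of GRCm38.p6 and printed 5′ to 3′.
Ctsd: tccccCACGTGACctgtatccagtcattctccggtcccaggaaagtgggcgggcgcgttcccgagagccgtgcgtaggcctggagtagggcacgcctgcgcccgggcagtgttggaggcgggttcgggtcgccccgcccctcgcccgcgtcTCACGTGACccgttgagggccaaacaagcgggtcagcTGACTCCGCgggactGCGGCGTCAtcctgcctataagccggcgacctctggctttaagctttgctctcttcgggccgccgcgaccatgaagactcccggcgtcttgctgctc
Gla: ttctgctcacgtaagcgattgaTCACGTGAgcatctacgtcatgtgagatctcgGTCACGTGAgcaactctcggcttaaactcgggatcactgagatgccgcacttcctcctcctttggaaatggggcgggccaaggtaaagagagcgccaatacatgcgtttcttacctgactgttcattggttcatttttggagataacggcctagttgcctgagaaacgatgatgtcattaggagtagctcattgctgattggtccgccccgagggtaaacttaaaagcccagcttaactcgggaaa
Sqstm1: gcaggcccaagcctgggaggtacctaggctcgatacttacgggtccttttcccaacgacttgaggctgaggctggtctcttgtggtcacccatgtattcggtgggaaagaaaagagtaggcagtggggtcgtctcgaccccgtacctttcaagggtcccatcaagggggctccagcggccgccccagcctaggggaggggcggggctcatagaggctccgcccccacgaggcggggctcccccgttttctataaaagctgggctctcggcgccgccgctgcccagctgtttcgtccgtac
The Ctsd window held TCACGTGA 99 bases before the start, a second E-box 245 bases before it, and antioxidant-type letters 62 and 47 bases before it. The Gla window held TCACGTGA 228 and 195 bases before the start, and the Sqstm1 window held none of the letters searched. A match is only a string of letters, and binding of any factor was not measured here.

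With FMK against DMSO, 7 of the 36 genes rose and 11 fell (edgeR quasi-likelihood test, adjusted p under 0.05 over all 13255 genes). That is 50.0% of them, where 20.6% of all genes tested passed; 10.4% of all genes rose and 10.1% fell. With OPH against DMSO, 4 rose and 10 fell, which is 38.9% of them, where 16.7% of all genes passed, 8.61% of all rising and 8.11% falling. Between the inhibitors, 1 of the 36 was higher and 5 were lower with OPH than with FMK, 16.7% of them, where 8.86% of all genes passed (4.20% higher and 4.66% lower). With every library scaled by its size alone the split was 2 higher and 3 lower, and the median of all genes in that comparison shifted to 0.12 on the log2 scale. In a fit with replicate number as a block it was 1 higher and 8 lower, where 16.1% of all genes passed. The median log2 fold change of the 36 was -0.026 with FMK against DMSO, -0.11 with OPH against DMSO and -0.013 with OPH against FMK, beside -0.0064, -0.0025 and 0.0084 over all genes tested. The libraries of the 2 groups did not overlap for 22 of the 36 genes with FMK against DMSO, 21 with OPH against DMSO and 16 with OPH against FMK, where this held for 35.5%, 33.7% and 27.1% of all genes tested. The comparisons with DMSO use the same 3 DMSO libraries, so their values are given side by side and their likeness is not counted as a result. The 36 are well-expressed genes: 31 of them lay above 25.03 CPM, the median level of the genes tested, and higher counts make a small change easier to detect.

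**Figure D1:**
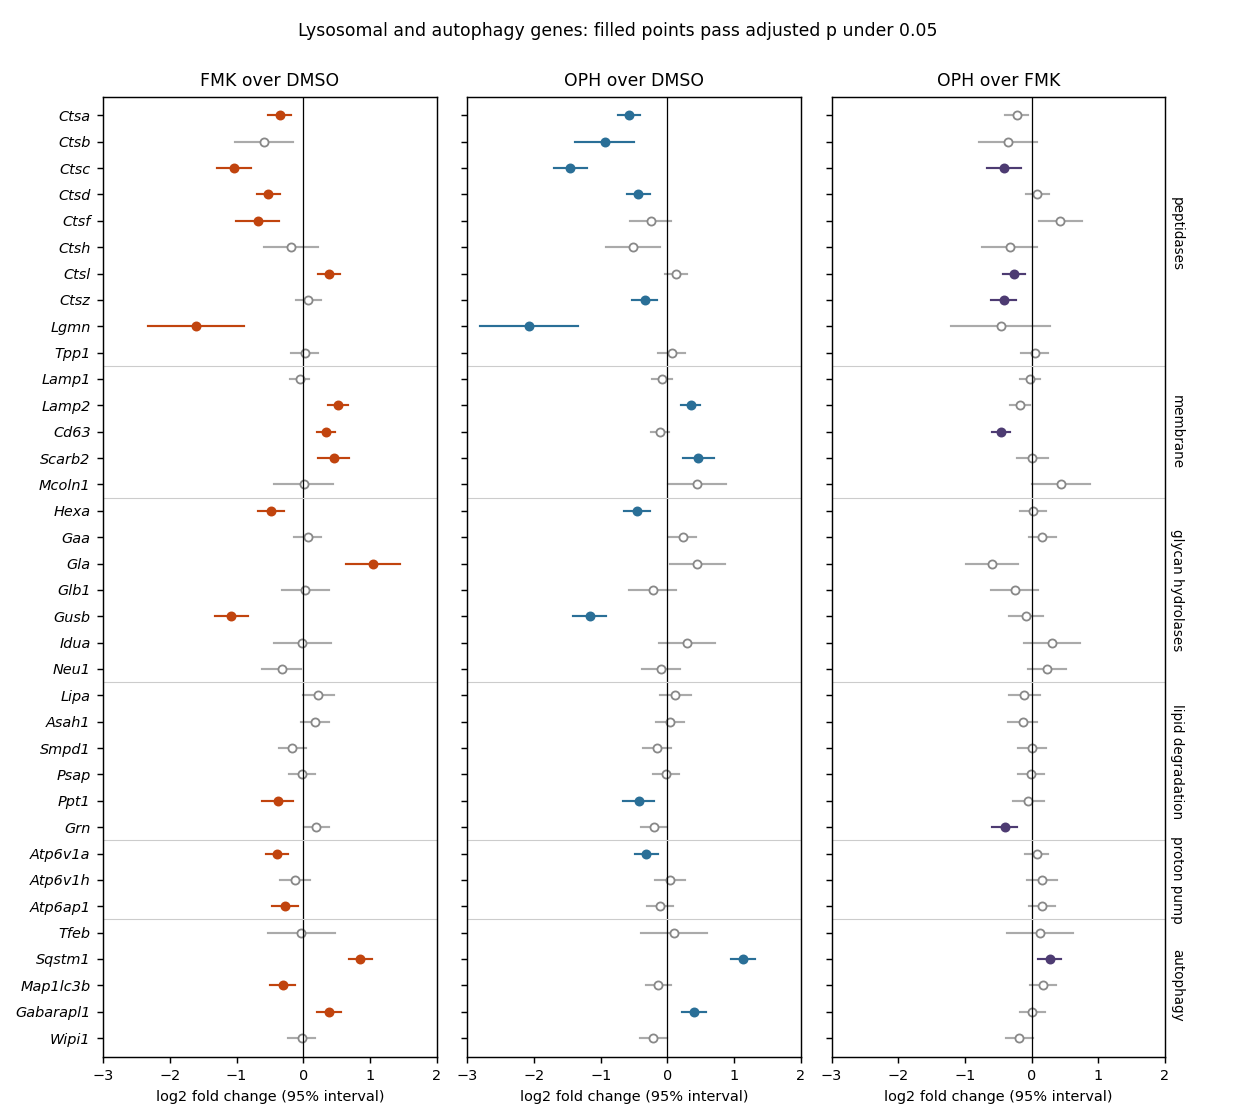
Log2 fold change (x axis) of each of the 36 genes (rows, grouped by role) with its 95% interval, for FMK over DMSO, OPH over DMSO and OPH over FMK; filled points pass an adjusted p of 0.05. Lgmn, Ctsc and Gusb lie farthest to the left against DMSO and Sqstm1 farthest to the right with OPH, while the third panel has 1 filled point to the right of zero and 5 to the left.

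Of 10 peptidases, 5 fell and 1 rose with FMK against DMSO, where 10.1% of all genes tested fell and 10.4% rose. With OPH against DMSO 6 fell and 0 rose, where 8.11% of all genes fell and 8.61% rose. Lgmn encodes legumain, the asparaginyl endopeptidase that processes other cathepsins (ENSMUSG00000021190, chromosome 12, 102394084 to 102439813, minus strand, GENCODE M21 on GRCm38). It stood at 63.1, 55.3 and 40.3 CPM with FMK, at 39.1, 43.4 and 32.6 CPM with OPH and at 176, 210.5 and 99.7 CPM with DMSO. All 6 libraries with an inhibitor lay below all 3 with DMSO, and DMSO library 3 was the lowest of its group. The log2 fold change was -1.61 ± 0.30 with FMK (SE, adjusted p = 0.00958) and -2.08 ± 0.31 with OPH (adjusted p = 0.00431), the lowest of the 36 in both comparisons.

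Ctsc encodes cathepsin C, the dipeptidyl peptidase that activates serine proteases of immune cells (ENSMUSG00000030560, chromosome 7, 88278085 to 88310888, plus strand). It stood at 48.4, 49.0 and 52.1 CPM with FMK, at 35.1, 42.1 and 34.8 CPM with OPH and at 108, 112 and 87.8 CPM with DMSO, with no overlap between any pair of groups. It fell by 1.04 ± 0.12 on the log2 scale with FMK (adjusted p = 4.2e-06) and by 1.45 ± 0.12 with OPH (adjusted p = 1.4e-07). Ctsb encodes cathepsin B, a widely expressed cysteine protease. Its levels were 607, 622 and 486 CPM with FMK, 464, 484 and 394 CPM with OPH, and 930.3, 1022 and 629 CPM with DMSO. Every inhibitor library lay below every DMSO library, although DMSO library 3 came close to the FMK group. The log2 fold change was -0.94 ± 0.19 with OPH, which passed (adjusted p = 0.0126), and -0.59 ± 0.19 with FMK, which did not (adjusted p = 0.0655). The FMK value was -0.57 in the fit that takes replicate number as a block (adjusted p = 4.5e-07), and without DMSO library 3 it was -0.77 (adjusted p = 9.8e-05).

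Smaller falls were seen for the aspartic protease and for the protective protein. Ctsd, cathepsin D, stood at 519, 553 and 543 CPM with FMK, at 559.6, 596 and 556 CPM with OPH and at 776, 859 and 687 CPM with DMSO. Both inhibitor groups lay wholly below the DMSO group, at log2 fold changes of -0.52 ± 0.08 with FMK (adjusted p = 1.35e-04) and -0.44 ± 0.08 with OPH (adjusted p = 0.00102). Ctsa encodes a carboxypeptidase that also stabilises the lysosomal beta-galactosidase and sialidase. It stood at 229, 219 and 197 CPM with FMK, at 180.4, 178 and 194 CPM with OPH and at 272, 279 and 273 CPM with DMSO. The groups did not overlap, and Ctsa fell by 0.35 ± 0.08 on the log2 scale with FMK (adjusted p = 0.00466) and by 0.58 ± 0.08 with OPH (adjusted p = 8.5e-05).

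The other cysteine cathepsins differed in pattern between the inhibitors. Ctsf, cathepsin F, stood at 20.6, 23.3 and 20.05 CPM with FMK, at 30.8, 24.03 and 31.6 CPM with OPH and at 34.1, 37.3 and 31.7 CPM with DMSO. It passed as lower with FMK (log2 fold change -0.69 ± 0.15, adjusted p = 0.00309) and did not pass with OPH (-0.25 ± 0.15, adjusted p = 0.282). Ctsl encodes cathepsin L, an endopeptidase, and was the peptidase that rose: 679, 649 and 575 CPM with FMK, 538, 548 and 504 CPM with OPH, and 474, 513 and 463 CPM with DMSO. All FMK libraries lay above all others, whereas the OPH and DMSO ranges overlapped; the log2 fold change was 0.39 ± 0.08 with FMK (adjusted p = 0.00155) and 0.13 ± 0.08 with OPH (adjusted p = 0.291). Ctsz, cathepsin Z, a carboxypeptidase, had 139, 139 and 133 CPM with FMK, 105, 95.4 and 108 CPM with OPH, and 135, 135 and 120.1 CPM with DMSO. Only the OPH group stood apart, at a log2 fold change of -0.34 ± 0.09 against DMSO (adjusted p = 0.0128); this call was lost without OPH library 2 (adjusted p = 0.0754), DMSO library 1 (0.0589) or DMSO library 2 (0.053). Ctsh, an aminopeptidase, did not pass at -0.19 with FMK and -0.52 with OPH, nor did Tpp1, a tripeptidyl peptidase, at 0.02 and 0.06.

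The macrophage markers also fell against DMSO. All 24 markers fell with FMK and 22 of 24 with OPH, at median log2 fold changes of -5.78 and -2.77, where 10.1% and 8.11% of all genes fell. DMSO library 3, with the lowest marker sum of the DMSO group, also had the lowest DMSO level of 9 of the 10 peptidases, all but Ctsa. These 9 include Ctsh, Ctsl and Tpp1, which were not called lower, and the share of all genes lowest in that library was not counted. Between the inhibitors, 18 of 24 markers were higher with OPH than with FMK and none was lower, where 4.20% of all genes were higher and 4.66% lower. Of the 7 peptidases that fell against DMSO with either inhibitor, Ctsa, Ctsb, Ctsc, Ctsz and Lgmn had a lower mean with OPH than FMK. The other 2, Ctsd and Ctsf, had a higher one. Only Ctsc and Ctsz of these 7 passed between the inhibitors, and the Ctsc call was near the threshold. The 7 were picked by falls in these same libraries, so a gene called with 1 inhibitor alone leans to a lower mean with it. This concerns Ctsb, Ctsf and Ctsz. The share of all genes with a lower mean with OPH was not counted. How much of each fall came with the macrophage transcripts, or with the lower cartilage markers, was not tested.

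**Figure D2:**
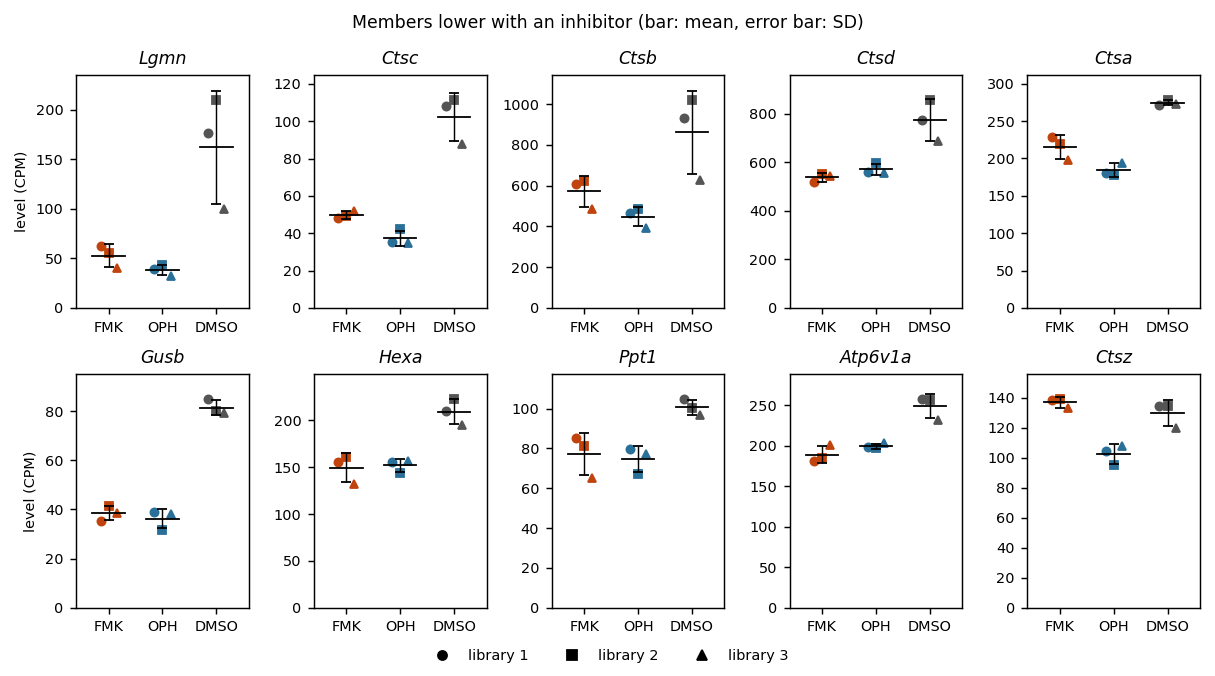
Level in CPM (y axis, from 0) of 10 genes in each library of the FMK, OPH and DMSO groups (x axis), with symbols for library numbers, a bar at the mean and SD error bars (n = 3). Lgmn and Ctsb spread widest in the DMSO group, where library 3 is lowest, and for Ctsz the OPH group alone lies low.

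Of 5 genes for proteins of the lysosomal membrane, 3 rose with FMK and 2 with OPH, and none fell in either comparison with DMSO. Called were 60.0% and 40.0%, beside 20.6% and 16.7% of all genes. Outside the 36, Atp6v0a1, a membrane subunit of the proton pump, fell with both inhibitors, as given further on. Lamp2, a major glycoprotein of the membrane with a role in chaperone-mediated autophagy (ENSMUSG00000016534, chromosome X, 38401357 to 38456454, minus strand), stood at 790.1, 880.1 and 785 CPM with FMK, at 733, 739 and 708 CPM with OPH and at 579, 554 and 579.6 CPM with DMSO. No groups overlapped, and Lamp2 rose by 0.52 ± 0.07 on the log2 scale with FMK (adjusted p = 3.2e-05) and by 0.35 ± 0.07 with OPH (adjusted p = 0.00224). Scarb2 encodes LIMP-2, the receptor that brings glucocerebrosidase to lysosomes. It had 193, 224 and 220.2 CPM with FMK, 189, 222 and 231 CPM with OPH, and 130.2, 157 and 178 CPM with DMSO. Both inhibitor groups lay above the DMSO group, at log2 fold changes of 0.45 ± 0.11 (adjusted p = 0.00793) and 0.47 ± 0.11 (adjusted p = 0.00839), and the OPH call was lost without DMSO library 1 (adjusted p = 0.0519).

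Cd63, a tetraspanin of lysosomes and exosomes (ENSMUSG00000025351, chromosome 10, 128900989 to 128912822, plus strand), stood at 1648, 1581 and 1661 CPM with FMK, at 1154, 1182 and 1227 CPM with OPH and at 1279.7, 1273 and 1304 CPM with DMSO. The FMK libraries were above the DMSO libraries and the OPH libraries below them. The FMK difference passed (log2 fold change 0.34 ± 0.06, adjusted p = 7.0e-04), and the OPH difference from DMSO did not (-0.11 ± 0.06, adjusted p = 0.2505). Lamp1, the sister protein of Lamp2, did not pass at -0.06 with FMK and -0.08 with OPH. Mcoln1, the calcium channel that activates TFEB through calcineurin, had 14.2, 22.3 and 14.7 CPM with FMK, 22.0, 26.0 and 21.8 CPM with OPH, and 21.0, 17.3 and 13.1 CPM with DMSO. The OPH libraries lay above the DMSO libraries, but neither comparison with DMSO passed (log2 fold change 0.45 ± 0.21 with OPH, adjusted p = 0.169).

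Among 7 glycan-degrading hydrolases, 2 fell and 1 rose with FMK, and 2 fell and 0 rose with OPH (42.9% and 28.6% called, beside 20.6% and 16.7% of all genes). Gusb encodes beta-glucuronidase, which removes glucuronic acid from glycosaminoglycans (ENSMUSG00000025534, chromosome 5, 129989011 to 130003049, minus strand). It stood at 35.4, 41.2 and 38.6 CPM with FMK, at 39.1, 31.7 and 38.0 CPM with OPH and at 84.8, 80.2 and 79.1 CPM with DMSO. The inhibitor libraries all lay far below the DMSO libraries, whose spread was small, and DMSO library 3 did not stand apart. Gusb fell by 1.08 ± 0.12 on the log2 scale with FMK (adjusted p = 2.4e-06) and by 1.17 ± 0.12 with OPH (adjusted p = 1.7e-06). Hexa, the alpha subunit of beta-hexosaminidase, had 156, 161 and 132 CPM with FMK, 156, 144 and 156 CPM with OPH, and 209.7, 223 and 196 CPM with DMSO. No inhibitor library reached the DMSO range, at log2 fold changes of -0.48 ± 0.09 (adjusted p = 9.7e-04) and -0.46 ± 0.09 (adjusted p = 0.00201).

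Gla encodes alpha-galactosidase A, which splits globotriaosylceramide (ENSMUSG00000031266, chromosome X, 134588149 to 134601125, minus strand). It had 23.4, 21.9 and 22.6 CPM with FMK, 13.3, 16.1 and 15.7 CPM with OPH, and 10.1, 9.36 and 13.4 CPM with DMSO. The FMK libraries lay above all others, and the lowest OPH library overlapped the highest DMSO library. Gla rose by 1.04 ± 0.19 on the log2 scale with FMK (adjusted p = 6.8e-04) and did not pass with OPH at 0.45 ± 0.19 (adjusted p = 0.13). Gaa, Glb1, Idua and Neu1, which encode an alpha-glucosidase, a beta-galactosidase, alpha-iduronidase and a sialidase, did not pass in any comparison; their log2 fold changes against DMSO ran from -0.32 (Neu1 with FMK) to 0.30 (Idua with OPH).

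Of 6 genes for lipid degradation and its activators, 1 passed with each inhibitor against DMSO (16.7%), a share near the 20.6% and 16.7% of all genes that passed. It was Ppt1, a palmitoyl-protein thioesterase, at 85.4, 81.1 and 65.3 CPM with FMK, 79.6, 67.3 and 77.2 CPM with OPH, and 105, 100.5 and 96.9 CPM with DMSO. Inhibitor and DMSO ranges did not overlap, and Ppt1 was lower with FMK (log2 fold change -0.38 ± 0.11, adjusted p = 0.0201) and with OPH (-0.43 ± 0.11, adjusted p = 0.0115). The FMK call was lost without FMK library 3 (adjusted p = 0.0864), DMSO library 1 (0.0733) or DMSO library 2 (0.0539), and the OPH call without OPH library 2 (0.0712). Grn encodes progranulin, a secreted and lysosomal protein that is processed into granulins. It had 643, 713 and 606 CPM with FMK, 479.8, 515 and 489 CPM with OPH, and 571, 636 and 508 CPM with DMSO. Each inhibitor range overlapped the DMSO range, and neither difference passed (log2 fold change 0.20 ± 0.09 with FMK, adjusted p = 0.13, and -0.21 ± 0.09 with OPH, adjusted p = 0.122). Blocked by replicate number, both passed, in opposite directions (adjusted p = 0.0344 for the FMK rise and 0.0346 for the OPH fall); so did the FMK difference without DMSO library 2 (0.0481) and the OPH difference without DMSO library 3 (0.0355). Lipa, Asah1, Smpd1 and Psap, which encode acid lipase, acid ceramidase, acid sphingomyelinase and the precursor of the saposins, stayed between -0.16 and 0.23 against DMSO. Of these differences, that of Lipa with FMK passed when DMSO library 2 was left out (log2 fold change 0.35, adjusted p = 0.0441).

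The proton pump genes among the 36 were lower where they passed. Atp6v1a, the catalytic subunit of the V-ATPase, had 182, 185 and 201 CPM with FMK, 198, 198 and 203 CPM with OPH, and 258, 257 and 232 CPM with DMSO. All inhibitor libraries lay below all DMSO libraries, at log2 fold changes of -0.40 ± 0.08 with FMK (adjusted p = 0.0017) and -0.32 ± 0.08 with OPH (adjusted p = 0.0107; 0.057 without DMSO library 1). Atp6ap1, an accessory subunit, had 223, 194 and 251 CPM with FMK, 233, 267 and 246 CPM with OPH, and 270.2, 273 and 262 CPM with DMSO. Its fall with FMK was at the threshold (-0.27 ± 0.09, adjusted p = 0.0484): it was lost without any 1 of 8 libraries (adjusted p = 0.0554 to 0.276), with FMK library 2 left out the value being -0.17, and it held only without FMK library 3. Atp6v1h, a regulatory subunit, did not pass at -0.12 with FMK and 0.04 with OPH.

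In the autophagy group, Sqstm1 rose most. It encodes p62, the receptor that binds ubiquitin-tagged cargo and is itself degraded by autophagy, and it is a known target of NRF2 as well as of TFEB (ENSMUSG00000015837, chromosome 11, 50199366 to 50210827, minus strand). It stood at 468, 561 and 549 CPM with FMK, at 614, 678 and 619 CPM with OPH and at 284, 284 and 304 CPM with DMSO. The inhibitor groups lay well above the DMSO group and did not overlap each other. Sqstm1 rose by 0.86 ± 0.08 on the log2 scale with FMK (adjusted p = 6.0e-07) and by 1.13 ± 0.08 with OPH (adjusted p = 2.8e-08). Gabarapl1, a member of the family of ubiquitin-like proteins that coat autophagosomes, had 124, 122 and 114 CPM with FMK, 113, 129 and 120.4 CPM with OPH, and 92.1, 90.8 and 92.7 CPM with DMSO. Both inhibitor groups lay above DMSO, at 0.38 ± 0.09 (adjusted p = 0.00415) and 0.40 ± 0.09 (adjusted p = 0.00427).

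Map1lc3b, which encodes LC3B of the same protein family, had 145, 165 and 151 CPM with FMK, 167, 191 and 162 CPM with OPH, and 178, 191 and 202 CPM with DMSO. It was lower with FMK (log2 fold change -0.31 ± 0.09, adjusted p = 0.0219), a call lost without FMK library 1 (adjusted p = 0.0946), FMK library 3 (0.0533), DMSO library 2 (0.0606) or DMSO library 3 (0.0796), and it did not pass with OPH (-0.13 ± 0.09, adjusted p = 0.369). Tfeb had low levels, at 10.6, 13.6 and 14.9 CPM with FMK, 11.8, 18.6 and 12.3 CPM with OPH, and 15.9, 10.6 and 13.4 CPM with DMSO. The 3 groups overlapped, and the 95% interval of the log2 fold change was -0.53 to 0.47 with FMK and -0.39 to 0.59 with OPH. Wipi1, a phosphoinositide-binding protein of early autophagosomes, did not pass at -0.02 with FMK and -0.21 with OPH.

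**Figure D3:**
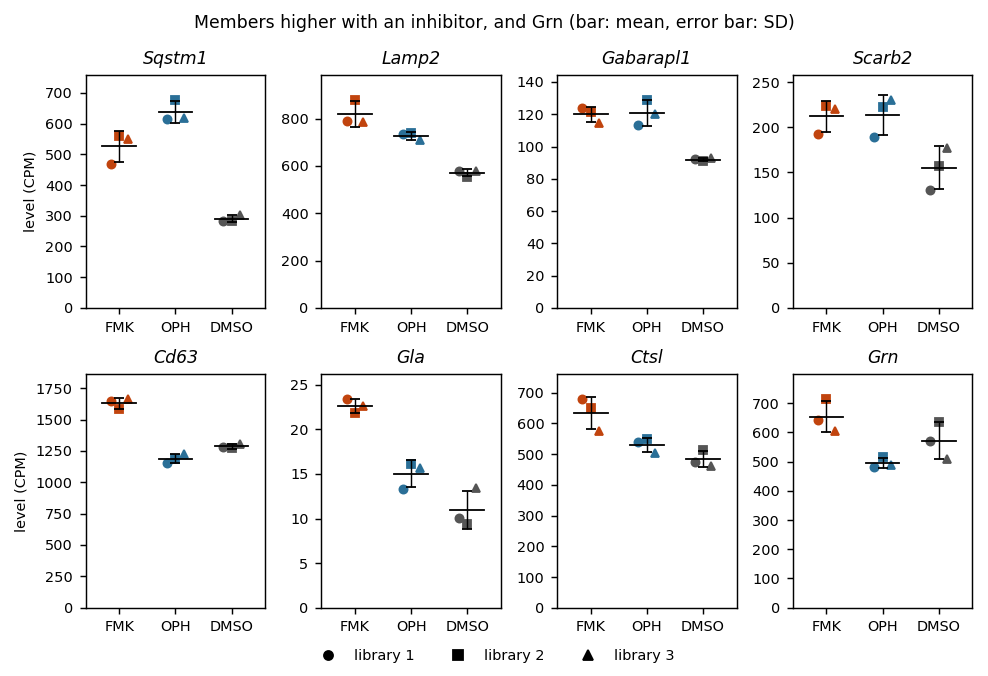
Level in CPM (y axis, from 0) of 8 genes in each library of the FMK, OPH and DMSO groups (x axis), with symbols for library numbers, a bar at the mean and SD error bars (n = 3). Sqstm1 is highest with OPH, whereas for Cd63, Gla, Ctsl and Grn the FMK group lies above the OPH group.

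At matched dose and time, OPH and FMK were compared directly as 1 pair of compounds. Ctsz (log2 fold change -0.42 ± 0.09, adjusted p = 0.00675) and Cd63 (-0.46 ± 0.06, adjusted p = 2.0e-04) were lower with OPH than with FMK, and these 2 calls held under all 18 alternative settings. Grn was lower with OPH at -0.40 ± 0.09 (adjusted p = 0.00743; 0.051 without FMK library 2). Calls near the threshold were those of Ctsc (-0.41 ± 0.12, adjusted p = 0.0422) and Ctsl (-0.26 ± 0.08, adjusted p = 0.0495), lower with OPH, and Sqstm1 (0.28 ± 0.08, adjusted p = 0.0424), higher with OPH. Leaving out 1 library took away the Ctsc call in 7 of 9 cases (adjusted p = 0.0514 to 0.138, all but OPH library 2 and DMSO library 3), the Ctsl call in 7 of 9 (0.0539 to 0.191, all but FMK library 3 and DMSO library 3) and the Sqstm1 call in 7 of 9 (0.0545 to 0.207, all but FMK library 3 and DMSO library 3).

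Blocked by replicate number, Lgmn (-0.46, adjusted p = 0.0117), Ctsb (-0.35, adjusted p = 0.00128) and Gla (-0.59, adjusted p = 0.0264) were lower with OPH too; without the block their adjusted p was 0.451, 0.322 and 0.055. Leaving out DMSO library 3 also brought Ctsb (adjusted p = 0.0317) and Gla (0.0388) past the threshold, and leaving out FMK library 3 brought Ctsa past it (-0.28, adjusted p = 0.0487, against 0.0991 with all libraries). For 4 of the 12 genes that passed against DMSO with both inhibitors, the 95% interval of the log2 difference, OPH over FMK and not adjusted for the number of genes, excluded 0: -0.40 to -0.05 for Ctsa, -0.67 to -0.16 for Ctsc, -0.32 to -0.02 for Lamp2 and 0.10 to 0.45 for Sqstm1. For the other 8 it included 0, at -0.34 to 0.17 for Gusb, -0.17 to 0.22 for Hexa, -0.09 to 0.25 for Ctsd, -0.22 to 0.25 for Scarb2, -0.17 to 0.19 for Gabarapl1, -0.29 to 0.18 for Ppt1, -0.09 to 0.25 for Atp6v1a and -1.20 to 0.27 for Lgmn. Of the 36 genes, 30 did not pass in this comparison, with log2 fold changes of -0.59 to 0.44. Markers of other cells also differed in this comparison. Besides the macrophage markers, 1 of 11 adipocyte markers tested was called higher with OPH than with FMK (median log2 fold change 4.47), where 4.20% of all genes were. At an unadjusted p under 0.05 (edgeR) all 11 were higher, a threshold for which the share of all genes was not counted. The libraries did not overlap for these 11, as for 27.1% of all genes tested. Of 13 adipocyte markers, 4 to 5 were at 0 counts in the FMK libraries and 0 to 1 in the OPH libraries. Of 7 osteoclast markers tested, 1 was called lower (median -0.69), where 4.66% of all genes were. The part of these cells in the differences between the inhibitors was not tested.

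Summed over each group of genes, the peptidases held 2396 ± 162 CPM with FMK, 2117 ± 90.0 CPM with OPH and 2997 ± 407 CPM with DMSO (SD, n = 3 each). The lysosomal membrane genes held 3391 ± 61.6 CPM with FMK, 2854 ± 60.1 CPM with OPH and 2769 ± 36.7 CPM with DMSO. The autophagy genes held 962 ± 55.4 CPM with FMK, 1077 ± 55.0 CPM with OPH and 738 ± 18.0 CPM with DMSO, with no overlap of an inhibitor group with DMSO. Over all 36 genes the sum was 9029 ± 260 CPM with FMK, 8204 ± 229 CPM with OPH and 8917 ± 498 CPM with DMSO, so the FMK and DMSO groups overlapped in their total while its make-up differed. These sums carry no test.

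**Figure D4:**
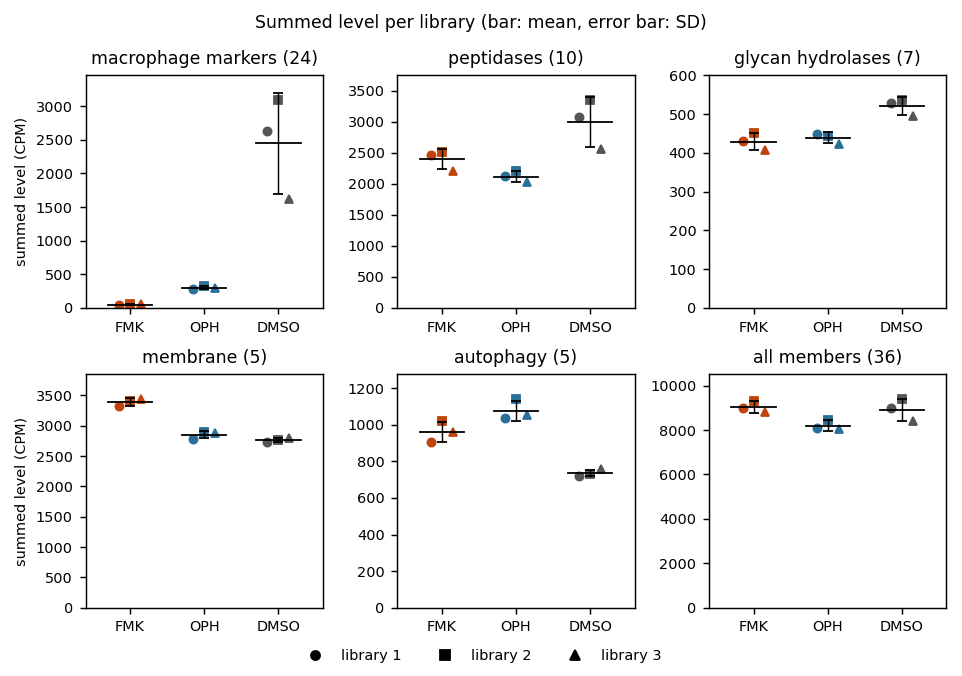
Summed level in CPM (y axis, from 0) per library of 24 macrophage markers, of 4 of the 6 groups of genes and of all 36 genes, for FMK, OPH and DMSO (x axis), with a bar at the mean and SD error bars (n = 3). Macrophage markers sit at 41.2 to 60.0 CPM with FMK and at 282 to 320.2 CPM with OPH. The peptidase sum is 2210 to 2507 CPM with FMK and 2024 to 2204 CPM with OPH. It also holds Ctsl, Ctsh and Tpp1, which were not called lower.

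The rest of the pathway was read from lists of genes that are not among the 36, chosen by function. Of 36 other lysosomal hydrolases, cofactors and membrane proteins, 2 rose and 6 fell with FMK, and 2 rose and 9 fell with OPH, against DMSO (4 and 10 with FMK, and 3 and 14 with OPH, under the replicate block). Called were 22.2% with FMK, near the 20.6% of all genes, and 30.6% with OPH, beside 16.7% of all. Under the block 26.8% of all genes passed with FMK and 22.9% with OPH, which holds for the next lists too. Npc2, which hands cholesterol out of the lysosome, stood at 1419, 1680.4 and 1297 CPM with FMK, at 965, 1076 and 816 CPM with OPH and at 676, 626 and 638 CPM with DMSO. No groups overlapped, and Npc2 rose by 1.18 ± 0.11 on the log2 scale with FMK (adjusted p = 1.33e-06) and by 0.56 ± 0.10 with OPH (adjusted p = 0.00196). Scpep1, a serine carboxypeptidase, rose by 0.43 and 0.39. The glycan hydrolase Man2b1, an alpha-mannosidase, fell by 0.74 and 0.88, and Hgsnat, which acetylates heparan sulfate for its degradation, fell by 0.62 and 0.72. Pla2g15, a lysosomal phospholipase, fell by 0.61 with OPH (adjusted p = 0.00151) and did not pass with FMK (-0.32). Without FMK library 3 or DMSO library 1, 3 in place of 6 of the list fell with FMK.

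Of 13 other subunits of the proton pump that were tested, 5 fell with FMK and 3 with OPH, and none rose. Called were 38.5% and 23.1%, beside 20.6% and 16.7% of all genes. Under the replicate block 5 fell and 0 rose with FMK, and 4 fell and 2 rose with OPH. Atp6v0a1, a membrane subunit, had 36.3, 27.3 and 26.7 CPM with FMK, 37.9, 29.9 and 36.9 CPM with OPH, and 75.1, 74.5 and 58.9 CPM with DMSO. It fell by 1.21 ± 0.15 with FMK (adjusted p = 1.22e-05) and by 0.99 ± 0.15 with OPH (adjusted p = 1.42e-04). Atp6v0d1 fell by 0.41 and 0.32, Atp6v0e by 0.30 and 0.43, and Atp6v1b2 by 0.50 with FMK. The count with FMK was 2 without FMK library 1 or 2 and 3 without DMSO library 1 or 3.

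Of 20 genes for the delivery of enzymes to lysosomes, 1 rose and 6 fell with FMK (1 and 8 under the block). With OPH, 1 rose and 0 fell (2 and 3 under the block). So 7 and 1 of the 20 were called, where 20.6% and 16.7% of all genes were. Sort1, a sorting receptor, had 20.3, 19.4 and 26.7 CPM with FMK, 32.4, 41.0 and 36.9 CPM with OPH, and 40.3, 47.9 and 41.3 CPM with DMSO. The FMK libraries lay below all others: Sort1 fell by 0.97 ± 0.15 with FMK against DMSO (adjusted p = 1.72e-04) and was higher with OPH than with FMK by 0.74 ± 0.15 (adjusted p = 0.00622). Of the genes for making the mannose 6-phosphate tag on lysosomal hydrolases, Gnptab fell with FMK by 0.76 and Nagpa by 0.80, and Gnptg, which encodes another subunit of the Gnptab enzyme, did not pass (-0.44, adjusted p = 0.0623). Vps11, a subunit of the tethering complexes of late endosomes, rose by 0.58 with OPH (adjusted p = 0.015). The count of falls with FMK was 3 without FMK library 1 or DMSO library 1 or 2, and without OPH library 2 there were 3 falls with OPH.

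Of 41 other autophagy genes tested, 5 rose and 2 fell with FMK (6 and 4 under the block). With OPH, 6 rose and 2 fell (7 and 2 under the block). Without the block that is 17.1% and 19.5%, near the 20.6% and 16.7% of all genes called. With library size alone the FMK split was 3 and 6, so its direction depended on the scaling. Trp53inp1, a p53-induced protein that binds LC3, stood at 52.8, 61.7 and 54.3 CPM with FMK, at 100.0, 129.8 and 115 CPM with OPH and at 32.4, 45.0 and 41.0 CPM with DMSO. It rose by 0.51 ± 0.13 with FMK (adjusted p = 0.0105) and by 1.54 ± 0.13 with OPH (adjusted p = 1.99e-07), and was higher with OPH than with FMK by 1.03 ± 0.13 (adjusted p = 8.35e-05). Rb1cc1, the scaffold of the initiating kinase complex, rose by 0.62 and 0.57, and the cargo receptor Tax1bp1 by 0.32 and 0.41. The rises with FMK numbered 1 without FMK library 2, 2 without DMSO library 1 and 3 without DMSO library 3, and those with OPH numbered 3 without OPH library 2 or 3 or DMSO library 1.

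Of 29 tested genes for TFEB's relatives and nutrient sensing at the lysosome, 1 rose and 2 fell with FMK (1 and 4 under the block). With OPH, 5 rose and 2 fell (6 and 2 under the block). Called were 10.3% with FMK and 24.1% with OPH, beside 20.6% and 16.7% of all genes. Between the inhibitors 4 (13.8%) were higher with OPH than with FMK and none was lower, where 4.20% of all genes were higher and 4.66% lower. Under the block 6 were higher, where 16.1% of all genes passed in either direction. Those 4, named after their values were seen, were Sesn2, Fnip1, Rragc and Flcn. The count was 2 without FMK library 1 and 1 without OPH library 2, and the rises with OPH against DMSO numbered 3 without OPH library 2 or DMSO library 1. Mitf, a relative of TFEB, rose by 0.83 with FMK and 0.65 with OPH, whereas Lamtor4, a subunit of the scaffold that anchors mTORC1, fell by 0.44 and 0.50. Sesn1, a stress-induced inhibitor of mTORC1, fell by 1.33 ± 0.16 with FMK (adjusted p = 1.04e-05) and by 1.01 ± 0.16 with OPH (adjusted p = 2.43e-04). Its relative Sesn2 had 47.0, 39.1 and 48.4 CPM with FMK, 74.3, 71.1 and 74.2 CPM with OPH, and 39.7, 46.3 and 45.5 CPM with DMSO, and passed with OPH (0.74 ± 0.12, adjusted p = 2.26e-04). Rragd, a Rag GTPase and known target of TFEB, rose by 1.58 ± 0.30 with OPH (adjusted p = 0.00141), at 14.7, 14.8 and 13.9 CPM, against 4.98, 6.77 and 2.76 CPM with DMSO.

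Of 13 NRF2 targets, a list that does not hold Sqstm1, 5 rose with FMK and 7 with OPH, and none fell. These are 38.5% and 53.8%, where 10.4% and 8.61% of all genes rose. Under the replicate block 5 rose and 1 fell with FMK, and 8 rose and 1 fell with OPH. With library size alone the FMK comparison had 2 rises and 2 falls, so that direction depended on the scaling. The rises with FMK numbered 2 without FMK library 2 or DMSO library 3 and 3 without FMK library 1 or DMSO library 2, and those with OPH numbered 4 without OPH library 1 or 2 or DMSO library 2 or 3. Srxn1, which repairs oxidised peroxiredoxins, rose by 0.90 ± 0.11 with FMK (adjusted p = 8.25e-06) and by 1.29 ± 0.11 with OPH (adjusted p = 1.59e-07). Txnrd1, a thioredoxin reductase, rose by 0.57 and 0.48. Keap1, the inhibitor of NRF2, rose by 0.30 with FMK and 0.28 with OPH. Hmox1, heme oxygenase, had 68.3, 80.3 and 73.9 CPM with FMK, 140.3, 124 and 116 CPM with OPH, and 62.1, 56.8 and 56.7 CPM with DMSO; it was higher with OPH than with FMK by 0.77 ± 0.10 (adjusted p = 1.47e-04). Gclc, a subunit of the enzyme that makes glutathione's precursor, rose with OPH by 0.82 (adjusted p = 5.92e-04) and was higher than with FMK by 0.90. In all, 5 of 13 were higher with OPH than with FMK and none was lower, where 4.20% of all genes were higher and 4.66% lower.

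**Figure D5:**
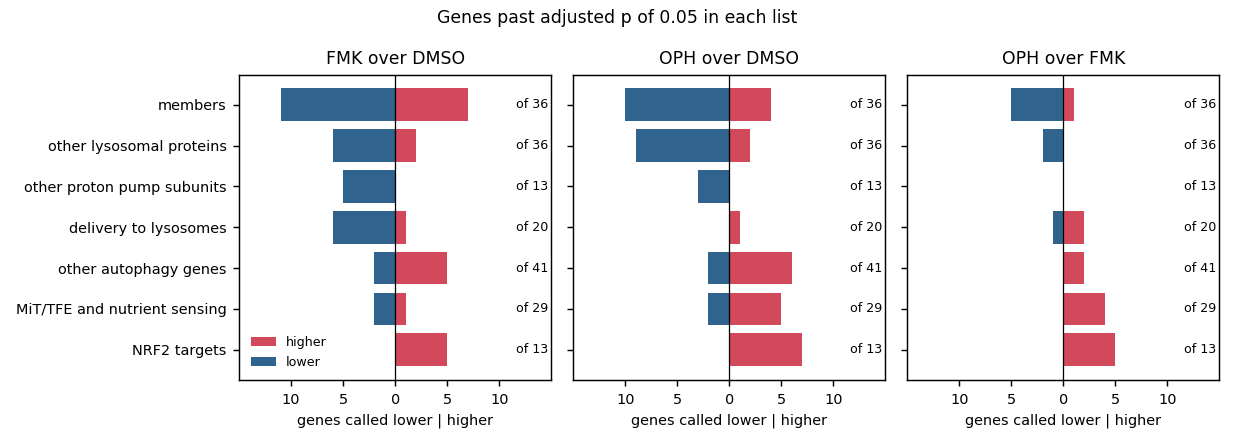
Number of genes past an adjusted p of 0.05 (x axis, lower to the left and higher to the right of zero) among the 36 genes, labelled members, and in 6 lists of related genes (rows), for FMK over DMSO, OPH over DMSO and OPH over FMK. Pump subunits have bars only to the left and NRF2 targets only to the right against DMSO, the FMK bar of the NRF2 targets being 5 of 13.

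In the authors' deposited table, whose fold changes run DMSO over FMK, DMSO over OPH and FMK over OPH, 11 of the 36 genes passed an adjusted p of 0.05 as higher and 7 as lower in the first comparison, 10 and 4 in the second, and 5 and 1 in the third. The 14 genes of the second and the 6 of the third were also those of the edgeR test; in the first 17 were shared, Ctsb passed only in the authors' deposited table (adjusted p = 0.00153), and Atp6ap1 did not pass there (adjusted p = 0.0651). The share of all genes with an adjusted p that passed in the authors' deposited table was 17.0%, 14.2% and 9.66% in these comparisons.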

How the data were processed

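RNA was measured in 9 libraries, 3 per treatment, made with a kit for the 3' ends of messenger RNA. The authors deposited raw counts per gene and library and, per the file headers, log2 fold changes with a p-value and an adjusted p-value from DESeq2 for 3 comparisons, each the first group over the second by its signs against the counts. The submitters' processing notes name the mm10 build and STAR, cutadapt, DESeq2, FastQC and MultiQC, without versions; the sources used here do not give the counting program, its annotation, or its use of strand and of reads mapping to several places, so overlapping and near-identical genes are uncertain. A further 99 rows of spike-ins, with 1 count in total, were left out. Positions come from GENCODE M21 on GRCm38, which is the assembly called mm10, where 52403 gene identifiers (99.7%) were found; 35 of the 36 genes had the same start there. Promoter windows come from RefSeq.

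The test was that of edgeR 4.0.16 under R 4.3.3. Its filterByExpr function kept 13255 genes with 99.7% or more of each library's counts. TMM factors were 0.945 to 0.963 with FMK and 1.02 to 1.03 with OPH and DMSO. The quasi-likelihood model had a coefficient for each group and no block, used all 9 libraries, and its p-values were adjusted over all genes tested by the Benjamini-Hochberg method, with a threshold of 0.05, two-sided. The biological coefficient of variation was 0.156. CPM are relative to library size after TMM, with the SD over 3 libraries, and log2 fold changes carry the SE of the fit; 3 counts over a group correspond to 0.147 to 0.167 CPM. An exact permutation test of 3 against 3 libraries cannot give a two-sided p under 0.1. PCR duplicates could not be told apart from separate molecules, so the CPM value of 3 counts covers counting error only.

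The labels give libraries 1, 2 and 3 in each group. The count headers add the letter a for all libraries but DMSO library 3 and OPH library 3, for a reason that is not given. Same-numbered libraries deviated together from their group means (correlations over genes of 0.102 to 0.344 in 9 of 9 pairs), so a fit with the number as a block was also made and its value is given where it changed a call. Pairs of libraries within a group were not copies (chi-square over degrees of freedom of their counts 5.75 to 14.4). The p-values measure the spread between these cultures, whose independence rests on the labels. The genes, the related lists, the marker lists and the tests were chosen with earlier results of these data known. Levels per library are given for genes past the threshold in at least 1 comparison and for Tfeb and Mcoln1; of each related list, up to 3 genes with the smallest p among those past the threshold against DMSO were named for each inhibitor. Alternatives were RLE scaling, library size alone, no filter, a filter of 5 CPM in 3 libraries, DESeq2 1.42.0, limma-voom (limma 3.58.1), only the groups compared, the block, libraries 1 and 2 alone, and each library left out; those for the related lists were added after seeing the data.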

Additional observations from a re-analysis of the deposited data

How the results depend on the processing

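The calls of the 36 genes, and the counts of calls in their groups and in the related lists, were recomputed under 18 alternative settings. Of these settings, 9 leave out 1 library each. The values of single genes named from the related lists, and the counts of cell type markers, were not recomputed. Of 38 calls, 27 held under all 18: 15 of 18 with FMK over DMSO, 10 of 14 with OPH over DMSO, and 2 of 6 with OPH over FMK. Leaving out single libraries gave 7 to 9 genes higher and 8 to 10 lower with FMK over DMSO, 3 to 4 higher and 8 to 11 lower with OPH over DMSO, and 0 to 1 higher and 2 to 7 lower with OPH over FMK. In that last comparison library size alone gave 2 higher and 3 lower, only the groups compared gave 0 higher, and both the replicate block and libraries 1 and 2 alone gave 8 lower; the cause was not tested. The pairing by replicate number added Ctsb lower and Grn higher with FMK over DMSO, Grn lower with OPH over DMSO, and Ctsb, Lgmn and Gla lower with OPH over FMK, and changed no other call of the 36 genes. Under the block 3552, 3039 and 2139 genes passed in the 3 comparisons, against 2724, 2216 and 1175 without it. Scaling by library size alone shifted the median of all genes to -0.11 on the log2 scale with FMK over DMSO, and brought Neu1 past the threshold as lower (adjusted p = 0.0339). Signs were followed for Tfeb, Mcoln1 and those of the 36 genes called in a comparison under at least 1 setting. They turned only for differences of Mcoln1 and Tfeb that were near zero and did not pass. The Mcoln1 value, 0.0035 with FMK over DMSO, was -0.098 with library size alone, -0.0083 with the replicate block, -0.064 with libraries 1 and 2 alone, -0.23 without FMK library 2 and -0.16 without DMSO library 3, and ran from -0.23 to 0.18 over all 9 single libraries left out. The Tfeb value was 0.10 without FMK library 1 and 0.12 without DMSO library 1 with FMK over DMSO, -0.14 without OPH library 2 and -0.033 without DMSO library 2 (highest 0.25, without DMSO library 1) with OPH over DMSO, and -0.11 without OPH library 2 with OPH over FMK, where leaving out single libraries gave up to 0.25. The 5 genes with the lowest counts, Ctsh, Gla, Idua, Mcoln1 and Tfeb, had 58 to 183 counts per library and an SE of 0.19 to 0.24; the parts of depth and of spread between cultures in it were not tested.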
